A study of Mus musculus with 6 samples.

Results

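The TNF receptor superfamily is the group of cell surface and secreted receptors that bind TNF and its relatives. Its transcripts were examined here through 10 genes, taken by symbol from the 33682 rows of a deposited gene expression table: Tnfrsf1a, Tnfrsf1b, Fas, Tnfrsf21, Tnfrsf11b, Tnfrsf12a, Ltbr, Cd40, Tnfrsf9 and Tnfrsf14. Each symbol had 1 row. The table comes from RNA sequencing of 6 samples of neonatal rat heart cells held in conditioned medium, which is the used medium of another culture. In 3 of them the donor culture was of ALOX5-/- bone marrow-derived mast cells (Alox5KO medium), and in the other 3 of WT bone marrow-derived mast cells (WT medium). The mast cells had been given TNF-alpha in both groups, and the genotype of every heart cell sample is labelled WT, so the groups differ in the donor of the medium. Alox5 encodes 5-lipoxygenase, the enzyme that begins leukotriene synthesis. Cultures without mast cell medium, and with medium of mast cells not given TNF-alpha, were not analysed here, and leukotrienes and TNF-alpha in the media were not measured in these data.

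These receptors carry cysteine-rich repeats outside the cell and are clustered by trimeric ligands of the TNF superfamily. Some have a cytoplasmic death domain, which binds adaptors such as TRADD and FADD and can lead to NF-kB activation or to cell death. Others have no death domain and recruit TRAF proteins, which lead to canonical or non-canonical NF-kB signalling, and a few are secreted decoys. In connective tissue cells Tnfrsf1a is the main receptor for soluble TNF, and in bone the decoy Tnfrsf11b restrains osteoclast formation.

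The libraries held between 14955850 and 15766187 recovered reads with Alox5KO medium and between 13284088 and 14389010 with WT medium. The sample labels call the cells cardiomyocytes, whereas the design text names cardiac fibroblasts. Fibroblast markers were abundant, with a summed level of 8828 to 9559 FPKM (fragments per kilobase of gene, scaled to the sequencing total) over 12 genes with Alox5KO medium and 9668 to 10045 FPKM with WT medium. In the test described below, 4 of these 12 fell (Dcn, Lum, Pdgfra and Fbln1), and 3 rose (Col3a1, Pdgfrb and Tcf21, the last not without the filter on low values). The widest was that of Dcn, the matrix proteoglycan decorin, which averaged 134 ± 66.3 FPKM with Alox5KO medium and 2219 ± 711 FPKM with WT medium (SD, n = 3 each). Of 11 cardiomyocyte markers in the table, Myl2 was listed at 0 in all 6 libraries, and the median marker lay between 0.562 and 2.06 FPKM. Their summed level was 102 to 128 FPKM with Alox5KO medium and 30.01 to 53.9 FPKM with WT medium, mostly from Tnnt2, and 4 of the 7 tested rose. Smooth muscle and pericyte markers moved with the groups, their summed level over 8 genes being 4898 to 6710 FPKM with Alox5KO medium and 1041 to 1115 FPKM with WT medium. Of the 7 tested, 6 rose and 0 fell, while over all genes tested 10% rose and 10.6% fell. The part of these shifts in the receptor results was not tested. In such bulk samples, fewer cells of a type and less RNA per cell cannot be told apart.

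More of the receptor genes fell than rose with Alox5KO medium. The widest difference in mean level among those tested was that of Tnfrsf21, 2.52-fold higher in WT medium. Of the 10 genes, 9 had a mean of at least 1 FPKM and were tested with limma on log2(FPKM + 1) among 12341 genes, with Benjamini-Hochberg adjustment at 0.05. Tnfrsf21, Tnfrsf11b, Cd40, Fas and Tnfrsf1b fell, Tnfrsf12a rose, and Tnfrsf1a, Ltbr and Tnfrsf9 did not pass. Over all tested genes 20.7% were called in either direction, 10.6% lower and 10% higher. The median log2 fold change of the 9 receptor genes was -0.47, against -0.00082 for all tested genes. Every fold change is Alox5KO medium over WT medium, and on this scale it understates the change of genes near 1 FPKM. Nothing in the labels states that replicates were separate cultures, so the p-values measure only a spread between samples that may be technical.

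**Figure D1:**
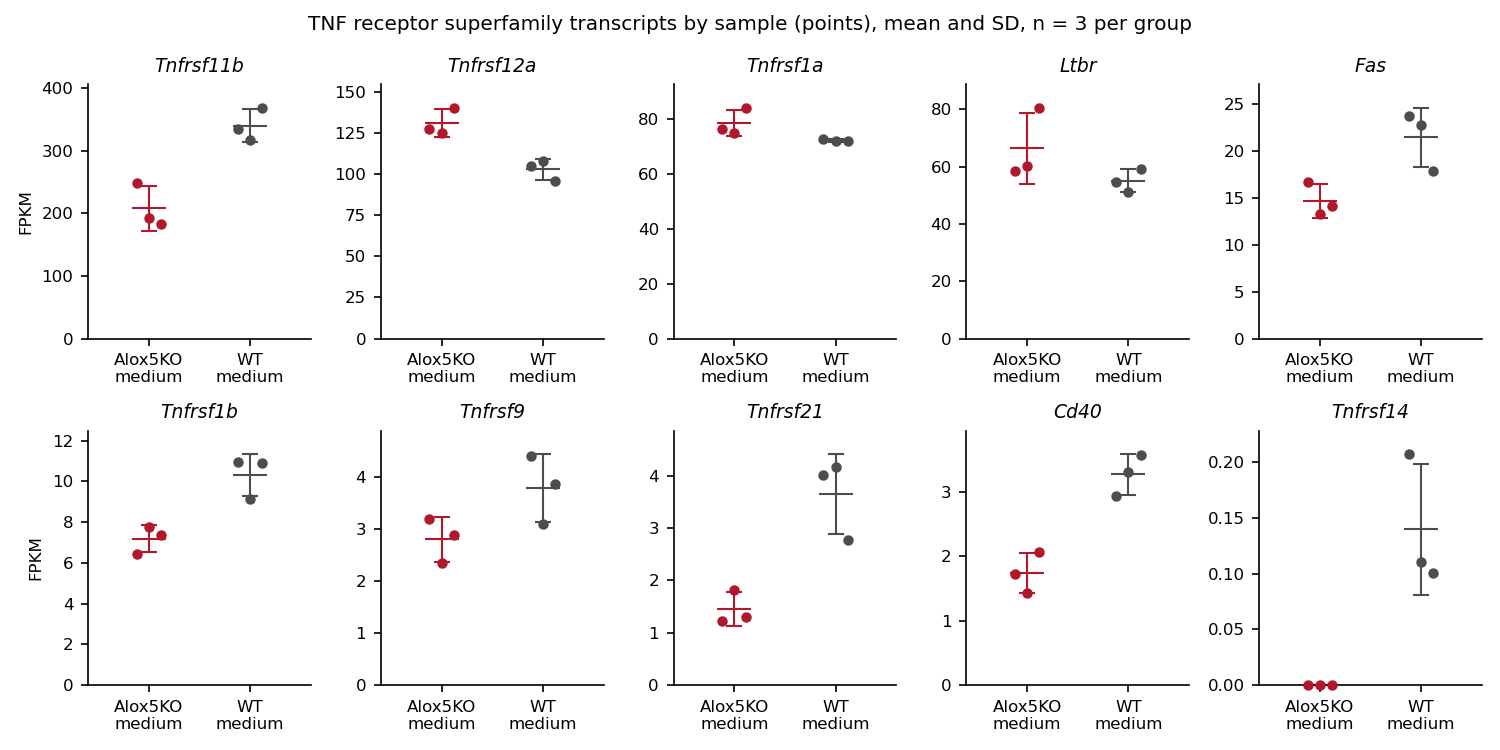
FPKM of the 10 receptor genes in each sample (points, linear axes from 0), with the mean and SD of the 3 samples per group, Alox5KO medium left and WT medium right. The groups do not overlap for Tnfrsf11b, Tnfrsf12a, Tnfrsf1a, Fas, Tnfrsf1b, Tnfrsf21, Cd40 and Tnfrsf14, and overlap for Ltbr and Tnfrsf9.

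The levels of the receptors spanned a wide range, and their order was nearly the same in both groups. Tnfrsf11b was highest, followed by Tnfrsf12a, Tnfrsf1a, Ltbr, Fas and Tnfrsf1b, in both media, on the FPKM scale, which corrects for gene length. Tnfrsf11b exceeded 97.6% of all tested genes in mean level, Tnfrsf12a 94.2% and Tnfrsf1a 90.6%, whereas Cd40 exceeded 15.3%. Within each group the FPKM ranges of neighbours in this order did not overlap, with some exceptions. Those were Tnfrsf1a and Ltbr, and Cd40 and Tnfrsf21, with Alox5KO medium, and Tnfrsf9, Tnfrsf21 and Cd40 with WT medium. Tnfrsf14 was last in both. Tnfrsf11b made up 40.5 ± 5.29% of the summed FPKM of the 10 genes with Alox5KO medium and 55.4 ± 2.34% with WT medium (SD, n = 3 each). The sum over the other receptors was 304 ± 25.4 FPKM with Alox5KO medium and 273 ± 6.27 FPKM with WT medium (SD, n = 3 each).

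The 2 receptors for TNF itself differed in level and in how they compared between the media. Tnfrsf1a (ENSRNOG00000031312, chromosome 4, 157864969 to 157877633, plus strand), the death domain receptor known as TNFR1, had 76.5, 75.1 and 84.2 FPKM with Alox5KO medium and 72.7, 71.9 and 71.9 FPKM with WT medium. The Alox5KO-medium values all lay above the WT-medium values, by a small margin. Its log2 fold change was 0.12 with a 95% interval of -0.08 to 0.32, and it did not pass (adjusted p = 0.41, limma with Benjamini-Hochberg). Tnfrsf1b (ENSRNOG00000016575, chromosome 5, 163136390 to 163167299, minus strand), known as TNFR2, has no death domain and responds best to membrane-bound TNF. It had 6.45, 7.74 and 7.37 FPKM with Alox5KO medium and 10.9, 9.11 and 10.9 FPKM with WT medium, with no overlap. It was lower by a log2 fold change of -0.47 (SE 0.12; adjusted p = 0.023, limma with Benjamini-Hochberg). The call was lost without WT-medium replicate 1 or 3 or Alox5KO-medium replicate 1 or 3, with adjusted p of 0.11, 0.061, 0.073 and 0.052 in limma with Benjamini-Hochberg, and at 0.076 with TPM scaling. The ratio of Tnfrsf1a to Tnfrsf1b FPKM was 11.9, 9.70 and 11.4 with Alox5KO medium and 6.65, 7.89 and 6.61 with WT medium. It was higher in each Alox5KO-medium sample than in any WT-medium sample, and this ratio was not tested.

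Fas and Tnfrsf21, membrane receptors with a death domain, both fell. Fas (ENSRNOG00000019142, chromosome 1, 252589785 to 252624790, plus strand), which triggers apoptosis when bound by Fas ligand, had 16.7, 13.2 and 14.0 FPKM with Alox5KO medium and 23.7, 22.7 and 17.8 FPKM with WT medium. The lowest WT-medium sample was close to the highest Alox5KO-medium sample, and the groups did not overlap. Its log2 fold change was -0.51 (SE 0.13; adjusted p = 0.026, limma with Benjamini-Hochberg). The call was lost without WT-medium replicate 1 or 2 or Alox5KO-medium replicate 2 or 3, with adjusted p of 0.11, 0.089, 0.076 and 0.082 in limma with Benjamini-Hochberg, and at 0.061 without the filter on low values.

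Tnfrsf21 (ENSRNOG00000011517, chromosome 9, 20546159 to 20621051, minus strand), known as death receptor 6, had the largest fold change of the 9 tested receptors. It had 1.23, 1.82 and 1.31 FPKM with Alox5KO medium and 4.02, 4.16 and 2.77 FPKM with WT medium. These values rest on 81, 128 and 86 reads with Alox5KO medium and on 246, 238 and 174 reads with WT medium, and every Alox5KO-medium sample was below every WT-medium sample. It fell by 0.92 on the log2 scale (SE 0.18; adjusted p = 0.0057, limma with Benjamini-Hochberg), and by 1.29 in limma-voom on the recovered reads, an alternative that uses no pseudocount of 1 FPKM. The call was kept without each replicate in turn, at adjusted p between 0.0035 and 0.029 in limma with Benjamini-Hochberg.

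Tnfrsf11b (ENSRNOG00000008336, chromosome 7, 93798545 to 93826665, minus strand) encodes osteoprotegerin, a secreted decoy that binds RANK ligand and TRAIL. It had 249, 192 and 183 FPKM with Alox5KO medium and 335, 317 and 369 FPKM with WT medium. All 3 Alox5KO-medium samples were lower than all 3 WT-medium samples, and the gene remained the most abundant of the 10 in each. The mean was 208 ± 35.8 FPKM with Alox5KO medium and 340.1 ± 26.4 FPKM with WT medium (SD, n = 3 each), 1.63-fold higher in WT medium. The log2 fold change was -0.72 (SE 0.13; adjusted p = 0.0052, limma with Benjamini-Hochberg). This call was also kept without each replicate in turn, at adjusted p between 0.0023 and 0.028 in limma with Benjamini-Hochberg. Its ligand and the signalling receptor of that ligand had few reads. Tnfsf11, which encodes RANK ligand, had 0 reads with Alox5KO medium and 6 with WT medium. Tnfrsf11a, which encodes RANK, had 3 reads with Alox5KO medium and 0 with WT medium.

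Tnfrsf12a was the one receptor that rose. Tnfrsf12a (ENSRNOG00000003546, chromosome 10, 12995904 to 12997930, minus strand), known as Fn14, is the receptor for TWEAK and was first described as a gene induced by fibroblast growth factor. It had 128, 125 and 141 FPKM with Alox5KO medium and 105, 108 and 96.0 FPKM with WT medium, without overlap. The mean was 131 ± 8.35 FPKM with Alox5KO medium and 103 ± 6.30 FPKM with WT medium (SD, n = 3 each), and the log2 fold change was 0.34 (SE 0.10; adjusted p = 0.035, limma with Benjamini-Hochberg). Leaving out any single sample other than Alox5KO-medium replicate 2 ended the call. The adjusted p was then 0.11, 0.071 and 0.070 without WT-medium replicates 1, 2 and 3, and 0.064 and 0.11 without Alox5KO-medium replicates 1 and 3 in limma with Benjamini-Hochberg. It was 0.052 without the filter on low values and 0.054 without the mean-variance trend and robust prior (limma, Benjamini-Hochberg). The ratio of Tnfrsf12a to its ligand Tnfsf12 was 9.77, 11.0 and 9.74 with Alox5KO medium and 6.86, 7.47 and 5.59 with WT medium, again without overlap and not tested.

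Ltbr (ENSRNOG00000019264, chromosome 4, 157822840 to 157829241, minus strand), the lymphotoxin beta receptor, signals through TRAF proteins to non-canonical NF-kB. It had 58.4, 60.2 and 80.7 FPKM with Alox5KO medium and 54.8, 51.2 and 59.3 FPKM with WT medium. Alox5KO-medium replicate 3 stood above the other 5 samples, which lay close together with overlapping groups. The log2 fold change of 0.25 had a 95% interval of -0.05 to 0.56 and did not pass (adjusted p = 0.24, limma with Benjamini-Hochberg). Without that replicate it was 0.11.

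The costimulatory receptors, best known from leukocytes, were present at low levels. Cd40 (ENSRNOG00000018488, chromosome 3, 161519743 to 161534704, plus strand), through which T cells activate B cells and which cytokines can induce on fibroblasts, had 1.72, 1.43 and 2.06 FPKM with Alox5KO medium and 2.94, 3.31 and 3.57 FPKM with WT medium. Its reads numbered 36, 32 and 43 with Alox5KO medium and 57, 60 and 71 with WT medium, and the groups did not overlap. It fell by 0.65 on the log2 scale (SE 0.15; adjusted p = 0.014, limma with Benjamini-Hochberg), and the adjusted p was 0.053 without WT-medium replicate 2.

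Tnfrsf9 (ENSRNOG00000036942, chromosome 5, 168009393 to 168035810, plus strand), known as 4-1BB, had 3.20, 2.34 and 2.89 FPKM with Alox5KO medium and 4.40, 3.11 and 3.88 FPKM with WT medium. The highest Alox5KO-medium sample was above the lowest WT-medium sample. The log2 fold change was -0.33 with a 95% interval of -0.68 to 0.02 (adjusted p = 0.18, limma with Benjamini-Hochberg). Tnfrsf14 (ENSRNOG00000013820, chromosome 5, 172328262 to 172335892, minus strand), the herpesvirus entry mediator, had too low a mean for the test. It was listed at 0 in the 3 Alox5KO-medium libraries and had 0.207, 0.111 and 0.101 FPKM with WT medium, from 6, 3 and 3 reads. Scaled to the recovered read totals, a count of 3 reads would have been 0.0925 to 0.0976 FPKM in the Alox5KO-medium libraries. The divisor of the deposited FPKM was 1.002 to 1.028 times those totals, so the limit is slightly lower on that scale. This limit covers counting error only. Without the filter on low values its log2 fold change was -0.19 (adjusted p = 0.049, limma with Benjamini-Hochberg). Tnfrsf14 entered that fit only through its WT-medium reads, and its Alox5KO-medium values had no spread, so this p-value is weak evidence of a fall. In that fit 5 of the 10 receptors were lower, with Tnfrsf14 among them and Fas not, and 0 were higher, beside 6.30% lower and 5.78% higher over all genes in that fit.

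Defining transcripts of lymphocytes, and the general leukocyte gene Ptprc, were at or near 0 in the libraries that carried these receptors. The lymphocyte genes Cd3e, Cd3d, Ms4a1 and Cd79b were listed at 0 in all 6, and the 7 lymphocyte markers in the table summed to between 0.0797 and 0.34 FPKM with Alox5KO medium and between 0.0406 and 0.119 FPKM with WT medium. Ptprc averaged 0.119 ± 0.0354 FPKM with Alox5KO medium and 0.107 ± 0.0797 FPKM with WT medium (SD, n = 3 each). The 9 leukocyte and macrophage markers in the table summed to 25.0 to 40.1 FPKM with Alox5KO medium and to 32.9 to 37.9 FPKM with WT medium, most of it from Cd14 and Lyz2, and of the 4 tested 1 fell, which was Cd14. Of 8 mast cell markers Fcer1a, Ms4a2 and Tpsb2 were listed at 0 in all libraries, while Cpa3, a mast cell protease, averaged 19.6 ± 4.19 FPKM with Alox5KO medium and 45.4 ± 7.69 FPKM with WT medium (SD, n = 3 each). The mast cell list summed to 22.3 to 32.3 FPKM with Alox5KO medium and to 43.4 to 61.4 FPKM with WT medium, mostly from Cpa3. The other tested gene of the list, Cma1, did not pass. It had 5.25 to 7.19 FPKM with Alox5KO medium and 5.22 to 7.83 FPKM with WT medium. Kit, below the filter, went the other way without overlap in FPKM. It had 64, 113 and 71 reads with Alox5KO medium and 57, 36 and 43 with WT medium. The part of the mast cell list in the receptor results was not tested. Endothelial markers summed to 2.74 to 3.67 FPKM with Alox5KO medium and to 4.44 to 6.54 FPKM with WT medium, nearly all from Tek, while Emcn was listed at 0. Tek fell, a call lost without the filter on low values (adjusted p = 0.034 with the filter and 0.068 without it, limma with Benjamini-Hochberg).

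**Figure D2:**
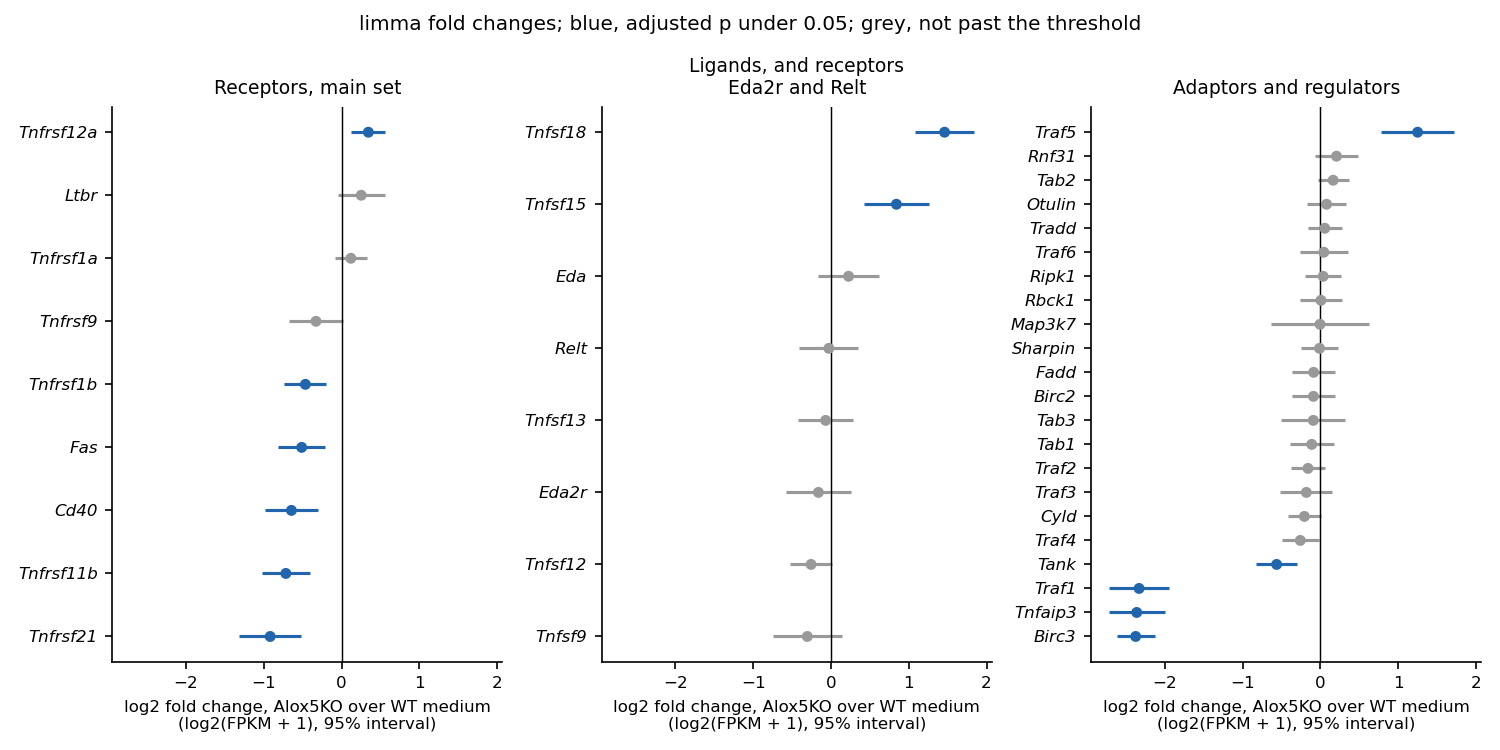
Log2 fold changes with 95% intervals for 9 tested receptors, for 6 tested ligands with Eda2r and Relt, and for 22 adaptors and regulators (limma on log2(FPKM + 1), Alox5KO over WT medium). Blue marks adjusted p under 0.05: of the receptors 5 are blue below 0 and Tnfrsf12a above 0, of the ligands Tnfsf18 and Tnfsf15 above 0, and of the adaptors 4 below 0 and Traf5 above 0.

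Without a threshold on p, the groups did not overlap for 5 tested receptors that were lower with Alox5KO medium and 2 that were higher, Tnfrsf12a and Tnfrsf1a. Over all tested genes 18.8% were lower without overlap and 18.8% were higher without overlap, 37.6% together. According to the protein domain column of the table, Tnfrsf1a, Fas, Tnfrsf21 and Tnfrsf11b hold a death domain. Of these 4 genes, 3 fell and Tnfrsf1a did not pass. Among the 4, Tnfrsf11b encodes a secreted decoy. Of the 5 other tested receptors 2 fell, 1 rose and 2 did not pass. For Tnfrsf1b and Ltbr, which are among these 5, that column lists no domain of any kind. By the same test 10.6% of all tested genes fell and 10% rose.

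The remaining receptors of the superfamily were mostly close to the limit of detection. Of 16 further receptor symbols, 15 were in the table, 2 were tested and neither passed. Eda2r, the receptor for the A2 form of ectodysplasin, averaged 7.92 ± 1.79 FPKM with Alox5KO medium and 8.94 ± 1.82 FPKM with WT medium (SD, n = 3 each). Relt, a TRAF-binding receptor, averaged 1.05 ± 0.205 FPKM with Alox5KO medium and 1.08 ± 0.0871 FPKM with WT medium (SD, n = 3 each). Their log2 fold changes were -0.16 and -0.03 (adjusted p = 0.59 and 0.94, limma with Benjamini-Hochberg). The directions of both are not fixed: Eda2r had 0.011 without Alox5KO-medium replicate 3, and Relt turned positive under 4 alternatives.

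Among the 13 receptor genes below the filter, Tnfrsf8, which encodes the activation marker CD30, was listed at 0 in every Alox5KO-medium library. Tnfrsf13b and Tnfrsf13c were also at 0 there, with 0 and 1 reads in all with WT medium. Tnfrsf8 had 36, 25 and 52 reads with WT medium, or 0.752, 0.559 and 1.06 FPKM. Set against 3 reads over the whole Alox5KO-medium group, its level was at least 41.3-fold lower with Alox5KO medium, a bound that covers counting error only. Tnfrsf19, a receptor also known as TROY, had 26, 28 and 36 reads with Alox5KO medium and 76, 58 and 73 with WT medium. Tnfrsf25, death receptor 3, had 2, 2 and 3 reads with Alox5KO medium and 10, 11 and 7 with WT medium. These genes were singled out after their values were seen. In the fit without the filter, Tnfrsf8, Tnfrsf19 and Tnfrsf25 fell by 0.83, 0.61 and 0.37 on the log2 scale (adjusted p = 0.0058, 0.021 and 0.026, limma with Benjamini-Hochberg), 3 of the 14 further receptors it tested. In that fit 12.1% of 19519 genes were called, 6.30% lower and 5.78% higher. Tnfrsf8 entered it only through its WT-medium reads. Tnfrsf26 had 19, 27 and 8 reads with Alox5KO medium and 63, 33 and 30 with WT medium and did not pass (adjusted p = 0.13, limma with Benjamini-Hochberg). Edar, the receptor for the A1 form of ectodysplasin, had 14, 22 and 5 reads with Alox5KO medium and 4, 5 and 6 with WT medium, with overlap (adjusted p = 0.31, limma with Benjamini-Hochberg).

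**Figure D3:**
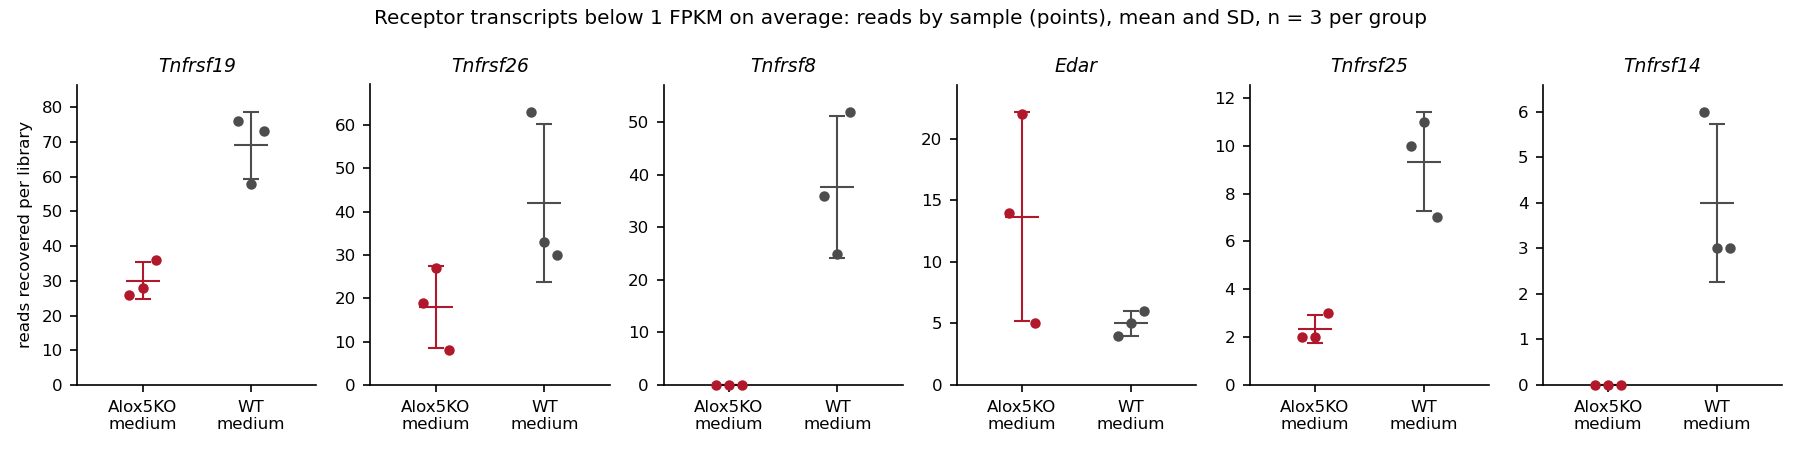
Recovered reads per library (points, linear axes from 0) with the mean and SD of 3 samples per group, for the 5 further receptors below the filter with at least 30 reads over the 6 libraries and for Tnfrsf14. Tnfrsf8 has 0 reads in each Alox5KO-medium library and 25 to 52 with WT medium, and Edar is the only one of the 6 whose groups overlap.

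Ligands of the superfamily were examined to set beside their receptors. All 18 ligand genes were in the table and 6 were tested. Of these, 2 rose and 0 fell, beside 10% higher and 10.6% lower over all tested genes. The median log2 fold change of the 6 was 0.08. Tnfsf18, the ligand of GITR, had 53.9, 43.1 and 43.0 FPKM with Alox5KO medium and 21.0, 13.4 and 15.2 FPKM with WT medium. By mean it was the most abundant ligand transcript in both groups, but Tnfsf12 was higher in WT-medium replicates 2 and 3, at 14.5 and 17.2 FPKM. Tnfsf18 rose by 1.46 on the log2 scale (SE 0.17; adjusted p = 4.4e-04, limma with Benjamini-Hochberg). The gene for its receptor, Tnfrsf18, had 3 reads in all with Alox5KO medium and 3 with WT medium. Tnfsf15, the ligand of the receptor encoded by Tnfrsf25, had 2.88, 3.82 and 2.76 FPKM with Alox5KO medium and 1.42, 0.868 and 1.71 FPKM with WT medium. It rose by 0.84 on the log2 scale (adjusted p = 0.012, limma with Benjamini-Hochberg), and its groups did not overlap.

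Tnfsf12, which encodes TWEAK, averaged 13.0 ± 1.52 FPKM with Alox5KO medium and 15.7 ± 1.39 FPKM with WT medium (SD, n = 3 each) and did not pass (adjusted p = 0.17, limma with Benjamini-Hochberg). Tnfsf9, the ligand of 4-1BB, averaged 1.62 ± 0.371 FPKM with Alox5KO medium and 2.27 ± 0.683 FPKM with WT medium (SD, n = 3 each), a log2 fold change of -0.30, not past the threshold. The B cell factor gene Tnfsf13 and the ectodysplasin gene Eda had log2 fold changes of -0.07 and 0.23, neither past the threshold. The ligands of several measured receptors had almost no reads. Tnf had 8 reads with Alox5KO medium, all in replicate 3, and 1 with WT medium. Faslg, the Fas ligand gene, had 1 read with Alox5KO medium and 3 with WT medium. Ltb, Tnfsf14, Cd40lg and Cd70 were listed at 0 in all 6 libraries.

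Among the adaptors and regulators of receptor signalling, the largest falls were those of Birc3, Tnfaip3 and Traf1, which are known targets of NF-kB. Of 22 adaptors and regulators, all tested, 4 fell, 1 rose and 17 did not pass, a share near the 20.7% called over all tested genes, and the median log2 fold change was -0.09. Birc3, an inhibitor of apoptosis, fell by 2.38 on the log2 scale, and Tnfaip3, the NF-kB inhibitor A20, fell to 17.7 ± 1.74 FPKM with Alox5KO medium, against 96.7 ± 22.3 FPKM with WT medium (SD, n = 3 each). Traf1, an adaptor that joins TRAF2 at TNFR2, CD40 and 4-1BB, had 0.906, 1.49 and 1.57 FPKM with Alox5KO medium and 11.3, 8.69 and 12.1 FPKM with WT medium, an 8.08-fold higher mean in WT medium. Its log2 fold change was -2.33 (SE 0.17; adjusted p = 2.4e-05, limma with Benjamini-Hochberg). Traf5, an adaptor of CD40 and the lymphotoxin beta receptor, had 13.8, 12.3 and 11.3 FPKM with Alox5KO medium and 3.05, 5.08 and 6.27 FPKM with WT medium. It rose by 1.25 on the log2 scale (SE 0.21; adjusted p = 0.0033, limma with Benjamini-Hochberg). Tank, a TRAF-binding regulator named because it completes the 4 falls, fell by 0.56. The core adaptors of TNFR1 had small fold changes that did not pass, 0.06 for Tradd and 0.03 for Ripk1, with 95% intervals of -0.16 to 0.27 and -0.20 to 0.27.

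In the non-canonical NF-kB list, 2 of 7 tested genes fell and 0 rose, against 10.6% and 10% of all tested genes. The median log2 fold change of the list was -0.16. Nfkb2, the precursor of the p52 subunit, averaged 32.9 ± 5.48 FPKM with Alox5KO medium and 62.5 ± 4.59 FPKM with WT medium (SD, n = 3 each), a log2 fold change of -0.92 (adjusted p = 0.0010, limma with Benjamini-Hochberg). Map3k14, the NF-kB inducing kinase, had 0.58, 1.38 and 1.21 FPKM with Alox5KO medium and 1.81, 2.46 and 2.76 FPKM with WT medium and fell by 0.71 (adjusted p = 0.038, limma with Benjamini-Hochberg). This fall did not pass without WT-medium replicate 2 or 3 or Alox5KO-medium replicate 1 or 3, at adjusted p of 0.11, 0.099, 0.11 and 0.071 in limma with Benjamini-Hochberg, nor without the filter on low values (0.070) or with TPM scaling (0.068). Traf2 and Traf3, which hold the kinase in check, had log2 fold changes of -0.16 and -0.18, neither past the threshold.

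Of 10 genes that act in death receptor signalling, 4 fell, 0 rose and 6 did not pass. Their median log2 fold change was -0.09, and over all tested genes 10.6% fell and 10% rose. The largest fall was that of Cflar, the caspase-8 inhibitor c-FLIP, which averaged 12.4 ± 0.720 FPKM with Alox5KO medium and 29.0 ± 3.41 FPKM with WT medium (SD, n = 3 each). Its log2 fold change was -1.15 (SE 0.11; adjusted p = 1.2e-04, limma with Benjamini-Hochberg). The pro-apoptotic gene Bid fell by 0.51 on the log2 scale, and Ripk3, the kinase of necroptosis, fell by 0.39, a call lost at adjusted p = 0.058 without WT-medium replicate 1 and at 0.052 with TPM scaling, in limma with Benjamini-Hochberg. The falls thus include an inhibitor of cell death and genes that promote it.

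Receptors of this family can be released from the cell surface by proteases. Of 6 shedding genes 2 fell, 1 rose and 3 did not pass, against 10.6% lower and 10% higher over all tested genes. The median log2 fold change of the 6 was -0.24. Adam17, the protease that releases TNF and its receptors, averaged 35.8 ± 1.97 FPKM with Alox5KO medium and 42.5 ± 2.70 FPKM with WT medium (SD, n = 3 each) and did not pass (adjusted p = 0.11, limma with Benjamini-Hochberg). Rhbdf2, which brings that protease to the surface, fell by 0.58 (adjusted p = 0.0037, limma with Benjamini-Hochberg). Adam10 fell by 0.47 at adjusted p = 0.037, a call lost without WT-medium replicate 1, 2 or 3 or Alox5KO-medium replicate 3, at 0.097, 0.098, 0.071 and 0.062 in limma with Benjamini-Hochberg. It was also lost without the filter on low values, with quantile normalization, with TPM scaling, and without trend and robust prior, at 0.081, 0.052, 0.072 and 0.063. Timp3, an inhibitor of both proteases, rose 7.45-fold in mean, at 11.5, 19.3 and 13.5 FPKM with Alox5KO medium and 1.99, 2.22 and 1.74 FPKM with WT medium.

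In the table's coordinates Tnfrsf1a and Ltbr are 35.7 kb apart on chromosome 4, on opposite strands, and neither passed the test. Fas lies 39.4 kb from Acta2, smooth muscle actin, and the 2 genes went opposite ways: Acta2 averaged 2775 ± 478 FPKM with Alox5KO medium and 339.6 ± 23.4 FPKM with WT medium (SD, n = 3 each). On the other side of Fas, at 182 kb, Ch25h, cholesterol 25-hydroxylase, fell by 2.57 on the log2 scale. Neighbours were taken as the nearest tested protein-coding gene on either side of each receptor gene and were named after their values were seen. Of 18 such genes outside the receptor set 2 rose, 2 fell and 14 did not pass, a share near the 20.7% called over all tested genes, the others called being Ext1 (0.90) and Ccn3 (-0.94) on either side of Tnfrsf11b, at 916 and 548 kb. The closest were Plekhg6, 549 bases from Tnfrsf1a, and the row AABR07029198.1, 447 bases from Tnfrsf12a, and neither passed.

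For the 3 receptors with the largest fold changes, the genes with the most similar pattern were found by the root mean square difference of centred log2(FPKM + 1) over the 6 samples, among 10683 tested genes with a symbol. For Tnfrsf21 they were Slc16a1, Cenpn and Cdc42ep2, at differences of 0.047, 0.068 and 0.070. For Tnfrsf11b they were Ulk2, Map3k8 and Dennd2d, at 0.056, 0.077 and 0.082. For Cd40 they were Dusp23, Plaur, the urokinase receptor, and Cdk2ap2, at 0.046, 0.057 and 0.063. A gene whose fold change has the same size and sign scores as alike on this measure.

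**Figure D4:**
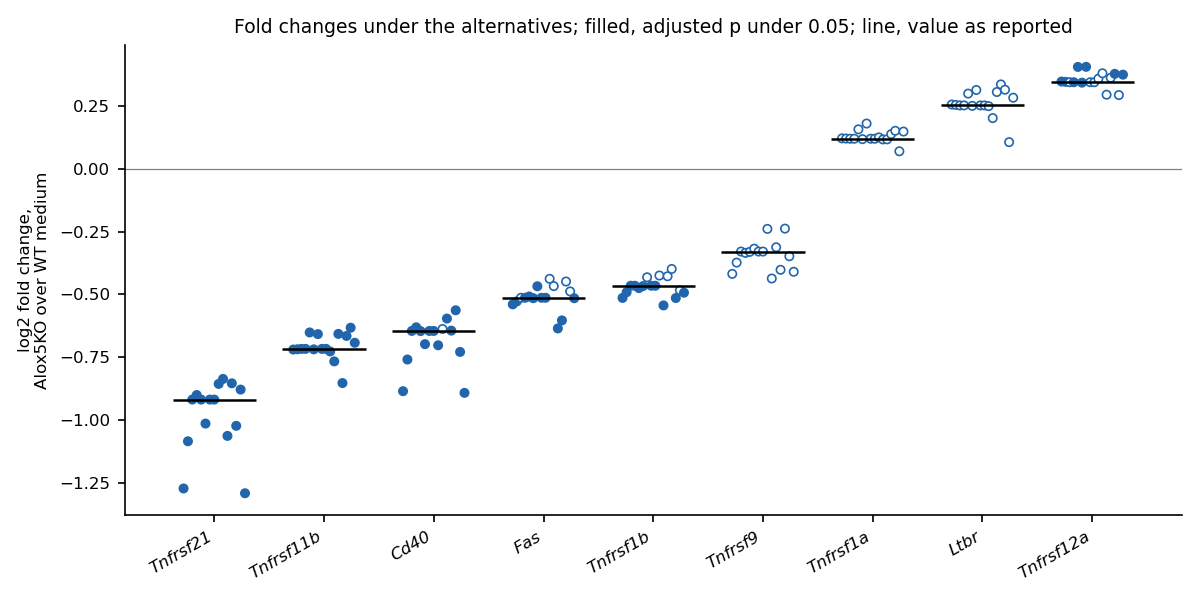
Log2 fold change of each tested receptor (Alox5KO over WT medium) under the alternative analyses (points) and as reported (black lines), with filled points for adjusted p under 0.05. Every point keeps the sign of its line; Tnfrsf21 and Tnfrsf11b are filled throughout, while Fas, Tnfrsf1b, Cd40 and Tnfrsf12a have open points.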

How the data were processed

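Per the labels' protocols, NEBNext Ultra libraries were made from TRIzol-extracted RNA. The submitters' processing notes name featureCounts 1.5.0-p3 and HISAT2 2.0.5, besides DESeq2 1.20.0, CASAVA 1.8, fastp and the build mm10, and give no order or role. The labels give mouse as the organism, but 32883 of 33682 rows carry rat Ensembl identifiers and 0 carry mouse ones. Coordinates are the table's own, since its rat build and the strand setting of counting are not given in the sources used here. Antisense or overlapping reads cannot be told apart. The authors deposited FPKM, with 1 column per sample, per the file headers. Reads per gene were recovered from FPKM and gene length: 100% of nonzero values were whole to within 0.05 reads.

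Values were analysed as log2(FPKM + 1) with limma 3.58.1 in R 4.3.3 (trend, robust prior, no replicate block, two-sided, all 6 samples), for genes averaging 1 FPKM or more across the samples. The members, the 6 gene lists and the marker lists were chosen with earlier results of these data known. Named genes are all members, up to 4 genes with the smallest p per list, and every ligand and further receptor above the filter. Also named are the most abundant gene of some marker lists and the 3 most similar genes of 3 members. Other markers, among them Dcn, were named after their values were seen. Members were matched by exact symbol and list genes without regard to case, and the most abundant row was taken. Counts of list members are descriptions, with no set test. Some genes that the lists count are not reported by name here. Intervals are at 95%, and the limit for a count of 0 is 3 reads. A listed 0 does not show absence of a transcript. Alternatives were other pseudocounts (0.1, 0.5), filters (none, 5 FPKM), scalings, prior settings, a replicate block, each sample left out and, chosen after seeing the data, limma-voom on the recovered reads.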

Additional observations from a re-analysis of the deposited data

How the results depend on the processing

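Under the 16 alternatives the 9 tested receptors kept their direction, and Tnfrsf11b and Tnfrsf21 kept their call wherever they were tested. The fall of Tnfrsf1b was -0.43 with TPM scaling, not past the threshold, and spanned -0.54 to -0.40 when single samples were left out. The fall of Fas was -0.51 without the filter, not past the threshold, and spanned -0.64 to -0.44 when single samples were left out, and that of Cd40 spanned -0.73 to -0.56. Tnfrsf12a had 0.34 without the filter, without trend and robust prior, and with the replicate block (limma, Benjamini-Hochberg adjusted p = 0.059), in each case not past the threshold, and 0.29 to 0.38 with 1 sample left out. The receptors called higher numbered 0 under those 3 settings and 0 to 1 with 1 sample left out. Those called lower numbered 3 with the 5 FPKM filter, which leaves out 3 of the tested receptors, and 3 to 4 with 1 sample left out. Of all genes, 791 to 1226 were higher and 862 to 1325 lower with 1 sample left out, the lowest of both without WT-medium replicate 1. The cause of the losses under scaling, prior and block settings was not tested. Relt was 0.0062 with quantile normalization and 0.0041 with TPM scaling, and spanned -0.10 to 0.041 when single samples were left out. Eda2r spanned -0.28 to 0.011 and Tnfsf13 spanned -0.14 to 0.046.

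The replicate numbers did not pair the samples: same-numbered samples had correlations of deviations from their group means of -0.096, 0.10 and 0.17, and Alox5KO-medium replicate 1 did not correlate best with its own number. With the replicate block 1277 genes were called higher and 1375 lower, against 1238 and 1313 without it, and of the receptors 5 were lower. The planned edgeR and DESeq2 fits were not run, because the deposited unit is FPKM, and limma-voom on the recovered reads took their place. It called 1 receptor higher and 5 lower.

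Depth limits Tnfrsf14, with 12 reads in all, and the further receptors below the filter, with at most 297 reads over the 6 libraries.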
